A study of Rattus norvegicus with 3 samples.

Results

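Dor was mapped by CUT&Tag on the rat genome at 3 stages of the oligodendrocyte lineage: precursor cells (OPC), immature cells (iOL, D1 in the labels) and mature cells (mOL, D3 in the labels). The regions described here are the compact stretches that carried a Dor peak in all 3 libraries. Peaks of the 3 deposited lists on chromosomes 1 to 20 were joined where they overlapped by 1 base or more. A joined region was kept where it held at least 1 peak of each library and spanned under 1500 bases. This left 3813 compact shared regions of 254448 joined regions, or 1.5%. They held 3833 of the 62263 OPC peaks on these chromosomes, 3835 of 57276 iOL peaks and 3848 of 160142 mOL peaks. Another 571 regions were shared by all 3 libraries with a span of 1500 bases or more, 16119 lay in 2 libraries and 233945 in 1 library. The compact regions were chosen by the peak calls themselves, that is by the p of each peak, its start and its end. For this reason their number, strength and width are a description and carry no test.

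All cells were primary rat cells. The precursors were shaken off mixed glial cultures kept in 15% fetal bovine serum and then for 2 days in medium conditioned by B104 cells, and were grown in Sato medium containing 10 ng/ml PDGF-AA and 20 ng/ml bFGF. Differentiation used Sato medium containing 15 nM of T3, a thyroid hormone, and 10 ng/ml CNTF, and the iOL and mOL samples carry T3 as their treatment label while the OPC sample carries none. Each stage had 1 library, made with the same rabbit antibody to Dor and sequenced as paired reads of 150 bp. The sources used here give neither the animals' age and strain nor the meaning of the word pool in the peak names. The labelled cell types were not set against marker genes, because genes were not assigned to peaks.

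Dor, the product of Tp53inp2, is known to shuttle between the nucleus and the cytoplasm. In the cytoplasm it binds LC3-family proteins and promotes the formation of autophagosomes, and in the nucleus it acts as a coactivator of nuclear receptors, the thyroid hormone receptor among them. A coactivator of this kind reaches chromatin through the proteins that it binds. In CUT&Tag an antibody brings a transposase to the protein, so that the pile of sequenced fragments at a position reflects how often DNA near the protein was cut. Thyroid hormone is a standard signal for the differentiation of oligodendrocytes, the cells that make myelin.

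The value used throughout is the summit pileup, the number of fragments over the highest base of a peak, which was solved from the authors' fold and p. Strength is this pileup divided by the library's genome background, the lowest background that the peak caller used. Each library's own summit was used, so a ratio of strengths within a region can set different positions side by side. OPC had a genome background of 1.47 fragments per base, iOL of 0.540 and mOL of 1.83, so a peak had to reach 9, 6 and 10 fragments to be called, or a strength of 6.11, 11.1 and 5.47. The strength that a compact region had to reach was therefore highest in iOL. With 1 library per stage a difference is one between libraries, without a replicate check. Intervals on ratios of strength cover counting error only. They take fragments as independent molecules, and how duplicates were handled is not stated in the sources used here. Regions named for an extreme ratio were picked by that ratio among those whose interval excluded 1. Their intervals are not corrected for this choice and carry no test. Intervals on shares take peaks or regions as independent, which are not replicates of a stage, and hold no counting error of fragments.

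The compact regions were strong Dor peaks in each library, with medians well above the lowest callable value. Their median strength was 25.8 in OPC, from 38 fragments, with quartiles of 17.0 and 38.7. In iOL the median was 29.6 from 16 fragments (quartiles 20.4 and 40.7), and in mOL it was 35.0 from 64 fragments (quartiles 22.4 and 53.6). Regions of 1 library had median OPC, iOL and mOL strengths of 8.14, 14.8 and 8.20. The shared regions of 1500 bases or more stood slightly above the compact ones, at 33.2, 33.3 and 43.2. Few compact regions rested on the weakest callable pileup: 24 for OPC, 128 for iOL and 14 for mOL. Of the 3813, 2047 reached 20 times the background in all 3 libraries (53.7%), 214 reached 50 times (5.61%) and 13 reached 100 times (0.341%). Over all 4384 regions of 3 libraries the shares were 56.2%, 5.93% and 0.319%. In the wider shared regions they were 72.7%, 8.06% and 0.175%.

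**Figure D1:**
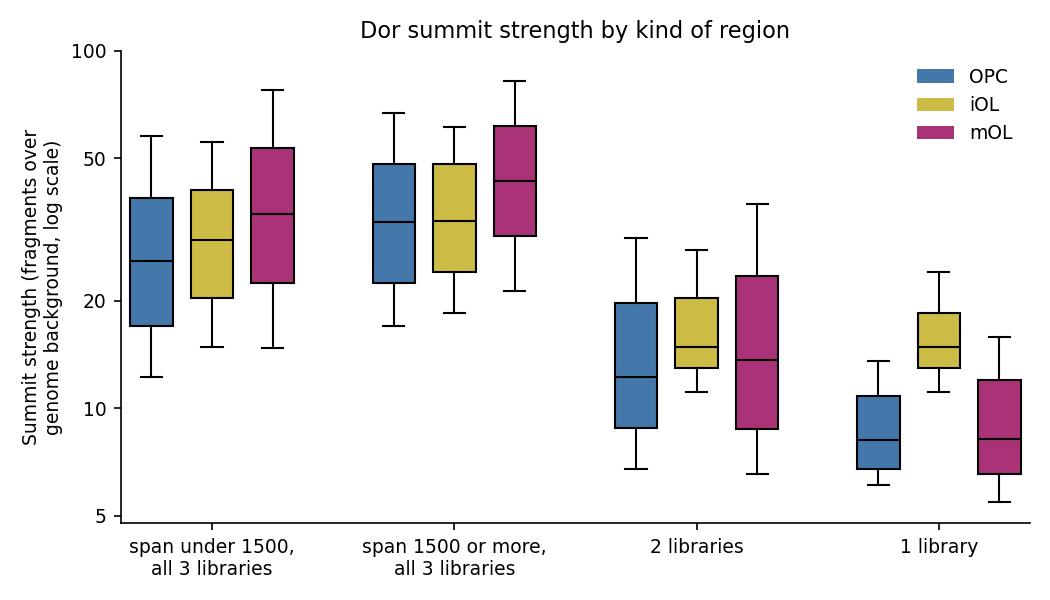
Summit strength (fragments over the genome background, log scale) in OPC, iOL and mOL for 4 kinds of joined region, where boxes give the quartiles with the median and whiskers the 10th and 90th percentiles over regions. Compact shared regions have medians of 25.8, 29.6 and 35.0, against 8.14, 14.8 and 8.20 in regions of 1 library.

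The strongest Dor peaks of each library lay mostly in compact shared regions. Of the 103 OPC peaks on these chromosomes that reached 100 times the background, 82 were in a compact region (79.6%, Clopper-Pearson 95% interval 70.5 to 86.9%) and 16 in a wider shared one. Of 27 such iOL peaks, 25 were in a compact region (92.6%, 75.7 to 99.1%) and 2 in a wider one. Of 223 such mOL peaks, 171 were in a compact region (76.7%, 70.6 to 82.1%), 30 in a wider one and 1 in a region of mOL alone. At 50 times the background the compact share was 63.5% of 861 OPC peaks, 76.2% of 702 iOL peaks and 56.0% of 1947 mOL peaks. At 20 times it was 38.5% of 6544, 20.7% of 14714 and 22.1% of 13820. Over all strengths it was 6.16% of OPC peaks, 6.70% of iOL peaks and 2.4% of mOL peaks. The share in wider shared regions also increased from all strengths to 50 times the background. It went from 1.01 to 15.1% in OPC, 1.06 to 16.5% in iOL and 0.388 to 11.7% in mOL. The increase is thus not particular to the compact regions. In regions of 2 libraries the share went from 18.3 to 20.4% in OPC and 9.09 to 28.9% in mOL, and fell from 11.2 to 4.84% in iOL.

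A pair of compact regions stood far above all others in minimum strength. The region with the highest minimum strength lay on chromosome 4 at 142116046 to 142116781, in the coordinates of the rat build rn5. Its summit held 1098 fragments in OPC, 269 in iOL and 1394 in mOL, for strengths of 745, 498 and 762. The next lay on chromosome 19 at 67047823 to 67048641, with 894, 178 and 1197 fragments. In both, the local background was also high. It was 39.5, 27.3 and 45.5 times the genome background at the chromosome 4 region and 29.96, 16.6 and 33.6 times at the chromosome 19 region. Over all compact regions the median for OPC, iOL and mOL was 2.32, 2.00 and 3.43 times. The authors' fold over the local background at the chromosome 4 region was thus 18.5, 17.1 and 16.6. By this fold it did not stand apart: the region on chromosome 2 at 217238938 to 217239984 had 20.5, 20.5 and 19.3.

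The other 3 of the 5 compact regions with the highest minimum strength were less extreme in strength. On chromosome 2 at 217238938 to 217239984 the summit held 224 OPC, 82 iOL and 295 mOL fragments, and the strengths of 152, 152 and 161 were nearly equal. On chromosome 7 at 123018351 to 123019542 the fragments numbered 420, 79 and 338. Here OPC stood highest, with a strength of 285 against 146 for iOL and 185 for mOL. On chromosome 1 at 83400686 to 83401625 the fragments numbered 229, 68 and 416, and mOL stood highest, with 227 against 155 in OPC and 126 in iOL. The order of the libraries thus differed between these regions. The mOL to OPC ratio of strength was 0.648 at the chromosome 7 region (counting interval 0.560 to 0.750) and 1.46 at the chromosome 1 region (1.24 to 1.73).

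Between OPC and mOL, the compact regions were on the whole somewhat stronger in mOL. The median ratio of mOL to OPC strength was 1.34, with quartiles of 0.945 and 1.83, and it stayed above 1 under every scaling tried, although it came down to 1.03 for the authors' fold over the local background. By strength the median was 1.24 over all regions shared by the pair and 1.31 in the wider regions of all 3 libraries. A median above 1 is thus not particular to the compact regions. In 734 compact regions the mOL strength was at least 2 times that of OPC (19.2%), where 17.0% of all 14107 regions shared by these libraries reached that ratio. In 125 it was at most 0.5 times (3.28%), against 3.47% of all shared regions. Both shares of the compact regions thus lay near those of shared regions in general. The counting interval lay above 1 in 1497 compact regions (39.3%, against 28.4% of all shared regions) and below 1 in 289 (7.58%, against 6.00%). It held 1 in 2027 (53.2%, against 65.6%). Regions of 2 libraries had lower median strengths, of 12.2 in OPC and 13.7 in mOL, and a lower pileup gives a wider interval. Centred on the median of all shared regions, 360 compact regions were at least 2-fold higher and 255 at least 2-fold lower in mOL, with the authors' fold over the local background 124 and 89, and with estimated mitochondrial fragments left out of the genome background 520 and 175. Leaving those fragments out moved the median of all shared regions by 0.21 (iOL to OPC), -0.16 (mOL to OPC) and -0.38 (mOL to iOL) on the log2 scale, and the centred counts are relative to that median.

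The 3 highest ratios of mOL to OPC came from regions with few OPC fragments. On chromosome 13 at 108960295 to 108961032 the summit held 12 fragments in OPC, 18 in iOL and 105 in mOL, a ratio of 7.05 (3.87 to 14.1). On chromosome 14 at 79730318 to 79731256 there were 12, 17 and 104, a ratio of 6.98 (3.83 to 13.9). On chromosome 2 at 47059652 to 47060348 there were 19, 12 and 144, a ratio of 6.11 (3.77 to 10.4). In the first 2 the iOL strength, of 33.3 and 31.5, lay between 8.14 in OPC and 57.4 or 56.9 in mOL. A further region, on chromosome 14 at 46822501 to 46823109, was chosen after its values were seen because it stood apart among the strong ones. Its summit held 93 OPC, 40 iOL and 682 mOL fragments, and the ratio of mOL to OPC was 5.91 (4.75 to 7.42). The local background was also highest in mOL there, at 15.9 times the genome background against 2.32 in OPC and 3.22 in iOL, and with the authors' fold the ratio was 1.07. The part of the peak's own fragments in that background was not tested.

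At the other end, the lowest ratio of mOL to OPC lay on chromosome 15 at 19713974 to 19714902. Its summit held 99 fragments in OPC, 14 in iOL and 16 in mOL, strengths of 67.2, 25.9 and 8.75, and the ratio was 0.130 (0.0717 to 0.222). The region on chromosome 7 at 74426973 to 74427796 had 79, 29 and 17 fragments. Its strength was nearly equal in OPC and iOL, at 53.6 and 53.7, and was 9.29 in mOL, a ratio of 0.173 (0.0962 to 0.295). On chromosome 2 at 206990567 to 206991824 there were 164, 20 and 41 fragments, a ratio of 0.201 (0.139 to 0.285). The 6 regions of highest and lowest ratio lay on the same side of 1 with the authors' fold, at 1.48 to 2.55 and 0.296 to 0.562. The outermost of the 3 summits were 244, 434 and 135 bases apart in the 3 highest and 117, 412 and 718 in the 3 lowest.

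Between OPC and iOL the direction of the median depended on the scaling. The median ratio of iOL to OPC strength was 1.12 (quartiles 0.787 and 1.65), and it was 0.926 with the authors' fold over the local background and 0.898 when centred on all regions that the pair shared. At least 2-fold higher in iOL were 576 compact regions (15.1%), against 19.7% of the 6023 regions shared by these libraries, and 255 were at most 0.5 times (6.69%, against 5.16%). Centred on all shared regions, the numbers were 291 higher and 543 lower, with the authors' fold 79 and 194, and without mitochondrial fragments in the background 848 and 158. The counting interval lay above 1 in 656 (17.2%, against 16.9%) and below 1 in 364 (9.55%, against 7.36%). For 2793 compact regions, or 73.2%, it held 1, near the 75.7% of all regions shared by the pair, so most could not be told apart between OPC and iOL at this depth.

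The compact regions with the highest iOL to OPC ratio were weak in OPC. On chromosome 15 at 89712185 to 89713111 OPC had 10 fragments, iOL 31 and mOL 20. The iOL strength of 57.4 exceeded both 6.78 in OPC and 10.9 in mOL, and the ratio to OPC was 8.46 (4.04 to 19.3). The OPC peak there began at 89712731, beyond the iOL summit at 89712456 and the end of the mOL peak at 89712582. On chromosome 3 at 167088797 to 167089969 there were 13, 34 and 87 fragments, a ratio of 7.14 (3.67 to 14.7). On chromosome 10 at 82002480 to 82003419 there were 9, 22 and 31, a ratio of 6.67 (2.95 to 16.5). The lowest ratios belonged to regions that were strong in both OPC and mOL. On chromosome 12 at 4692922 to 4693507 the summit held 125 fragments in OPC, 8 in iOL and 105 in mOL, a ratio of iOL to OPC of 0.175 (0.0738 to 0.355). On chromosome 10 at 92252673 to 92253775 there were 146, 10 and 149 fragments, a ratio of 0.187 (0.0878 to 0.354). On chromosome 16 at 32310577 to 32311172 there were 127, 10 and 171, a ratio of 0.215 (0.101 to 0.408). With the authors' fold the 3 highest ratios came down to 3.73, 2.52 and 2.66, and the 3 lowest were 0.281, 0.250 and 0.312. The outermost of the 3 summits were 308, 477 and 237 bases apart in the 3 highest and 239, 26 and 85 in the 3 lowest.

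Between iOL and mOL the direction also turned with the scaling. The median ratio of mOL to iOL strength was 1.18 (quartiles 0.795 and 1.71), and 0.909 when estimated mitochondrial fragments were left out of the genome background. By strength the median was 0.871 over all regions shared by the pair and 1.27 in the wider regions of all 3 libraries. The lowest callable strength was 11.1 in iOL and 5.47 in mOL, and its part in these medians was not tested. At least 2-fold higher in mOL were 630 compact regions (16.5%), against 9.42% of the 9141 regions shared by the pair, and 287 were at most 0.5 times (7.53%, against 18.9%). Without mitochondrial fragments in the background, 283 were higher and 579 lower, and centred on all shared regions 912 and 186. The counting interval lay above 1 in 918 (24.1%, against 12.8%) and below 1 in 350 (9.18%, against 13.1%). It held 1 in 2545 (66.7%, against 74.1%). Regions shared by iOL and mOL alone have no OPC peak, and the compact regions are by rule those that have one.

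Single compact regions departed far from these medians. On chromosome 15 at 65536310 to 65537211 the summit held 55 fragments in OPC, 6 in iOL, the fewest that could be called, and 167 in mOL, a ratio of mOL to iOL of 8.22 (3.7 to 22.7). On chromosome 6 at 108048842 to 108049848 there were 61, 11 and 222 fragments, a ratio of 5.96 (3.27 to 12.1). On chromosome 8 at 60005296 to 60006747 there were 31, 6 and 117, a ratio of 5.76 (2.57 to 16.0). In all 3 the iOL strength was the lowest of the libraries. The lowest ratio lay on chromosome 10 at 25699179 to 25699881, with 14, 29 and 13 fragments and a ratio of 0.132 (0.0632 to 0.263). The next were on chromosome 7 at 79492073 to 79493181, with 34, 36 and 18 fragments (0.148, 0.0789 to 0.267), and on chromosome 19 at 32704233 to 32705025, with 27, 19 and 10 (0.155, 0.0646 to 0.351). With the authors' fold the 3 highest ratios came down to 3.19, 3.43 and 2.45, and the 3 lowest were 0.268, 0.468 and 0.422. The outermost of the 3 summits were 97, 315 and 60 bases apart in the 3 highest and 284, 524 and 180 in the 3 lowest.

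**Figure D2:**
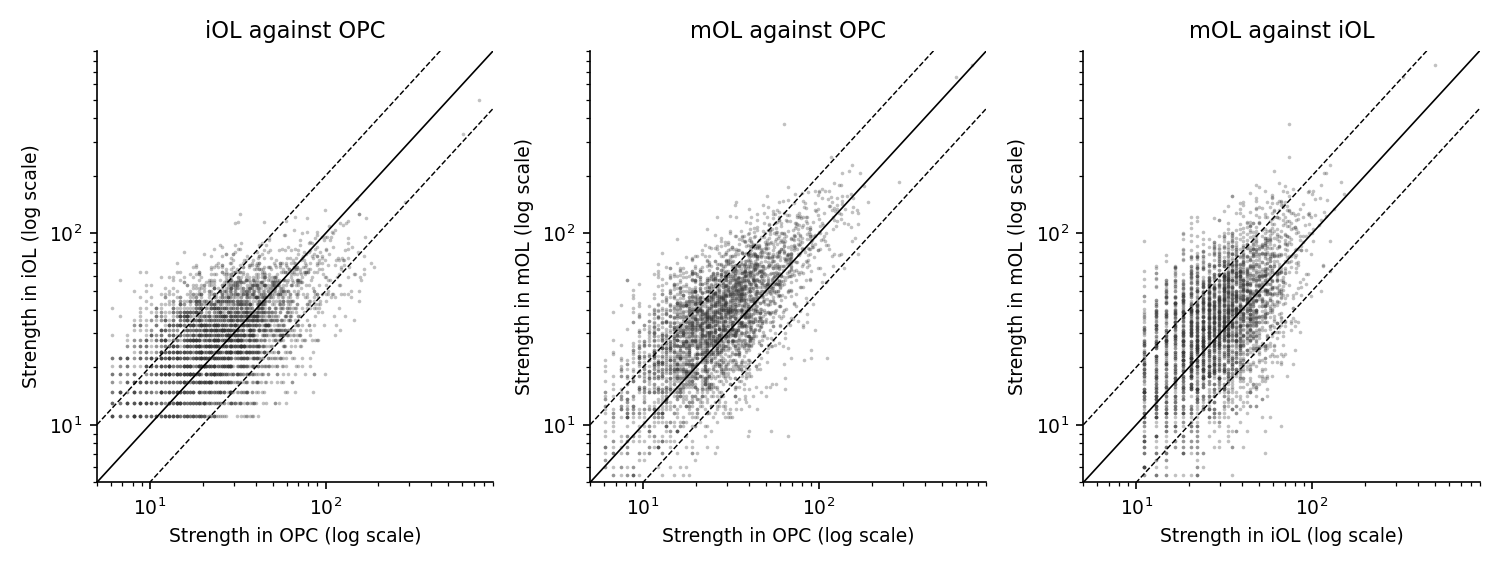
Summit strength of the 3813 compact regions in pairs of libraries, on log axes, with 1 point per region, a solid line at equal strength and dashed lines at ratios of 2 and 0.5. The rows and columns of points on the iOL axis are whole fragment numbers, since the iOL median is 16 fragments.

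Within a compact region the highest of the 3 strengths was a median of 1.92 times the lowest. It was at most 1.5 times the lowest in 874 compact regions (22.9%, against 23.5% of the 4384 regions shared by all libraries) and at least 4 times in 131 (3.44%, against 3.40%). With the authors' fold over the local background in place of strength, 1739 compact regions lay within 1.5 times. In 1418 regions (37.2%) the counting intervals of all 3 pairwise ratios held 1, close to the 36.7% of all regions shared by the 3 libraries. The mOL library had the highest strength in 1975 regions, iOL in 1192 and OPC in 646. On this scaling, OPC stood below iOL and iOL below mOL in 1047 regions (27.5%), and the reverse order was found in 277 (7.26%). A single library stood at least 2 times above both others in 237 compact regions for mOL (6.22%, against 6.27% of the 4384), 154 for iOL (4.04%, against 3.85%) and 30 for OPC (0.787%, against 0.730%). It stood at most at 0.5 times both others in 249 for OPC (6.53%, against 6.30%), 174 for iOL (4.56%, against 4.65%) and 55 for mOL (1.44%, against 1.28%). All these shares lay near those of the regions shared by the 3 libraries, most of which are compact. Across the 3813 regions, strength had a Spearman coefficient of 0.652 between mOL and OPC, 0.499 between mOL and iOL and 0.492 between iOL and OPC. These are descriptions across regions, which share each library's depth.

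The compact regions were nearly all made of single peaks, and the mOL peak was usually the widest. In 3736 of them (98.0%) each library had exactly 1 peak, against 77.2% of the wider shared regions. The span limit leaves little room for a further peak, so this share is largely set by the rule. The median span was 1011 bases, and the OPC peak had a median width of 670 bases, the iOL peak of 465 and the mOL peak of 785. The mOL peak alone was the widest in 2156 regions (56.5%), the OPC peak in 1213 (31.8%) and the iOL peak in 432 (11.3%). The iOL peak was the narrowest in 2465 (64.6%). In the wider shared regions the mOL peak alone was the widest in 68.5% and the iOL peak the narrowest in 76.4%. This order of widths is thus not particular to the compact regions. Among the compact regions, the mOL peak held the whole iOL peak in 1660 (43.5%) and the whole OPC peak in 1178 (30.9%). The OPC peak held the iOL peak in 1295 (34.0%) and the mOL peak in 564 (14.8%). Widths move with depth: the iOL library, with the narrowest peaks, is also the shallowest, and the part of depth in the widths was not tested.

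In 3465 compact regions a core was covered in all 3 libraries, of a median of 356 bases (quartiles 267 and 477). In the other 348 (9.13%) no base was covered by all 3. The OPC and iOL peaks did not overlap each other in 188 of these 348 regions, the iOL and mOL peaks in 108 and the OPC and mOL peaks in 53, where a region may count more than once. The regions with no common base were weak, with a median minimum strength of 13.0 against 22.2 in the regions with a common core. Among the wider shared regions the share with no common base was 13.3%.

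The summits lay close together in the strongest compact regions and apart in the weakest. The median distance between summits was 135 bases for mOL and OPC, 163 for iOL and OPC and 167 for mOL and iOL. The share within 100 bases was 40.8% for mOL and OPC (39.2 to 42.4%), 34.3% for iOL and OPC (32.8 to 35.8%) and 33.6% for mOL and iOL (32.1 to 35.1%). The outermost of the 3 summits were a median of 268 bases apart. This distance was 340 bases in the 1076 regions whose weakest strength was under 15, 306.5 from 15 to 20, 279 from 20 to 30, 202 from 30 to 50 and 129.5 in the 214 regions of 50 or more. It fell although the median span rose over these classes, from 923 to 1069.5 bases. All 3 summits lay within 100 bases in 8.74% of the weakest class and in 32.7% of the strongest. The distance cannot exceed the span that the rule allows.

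**Figure D3:**
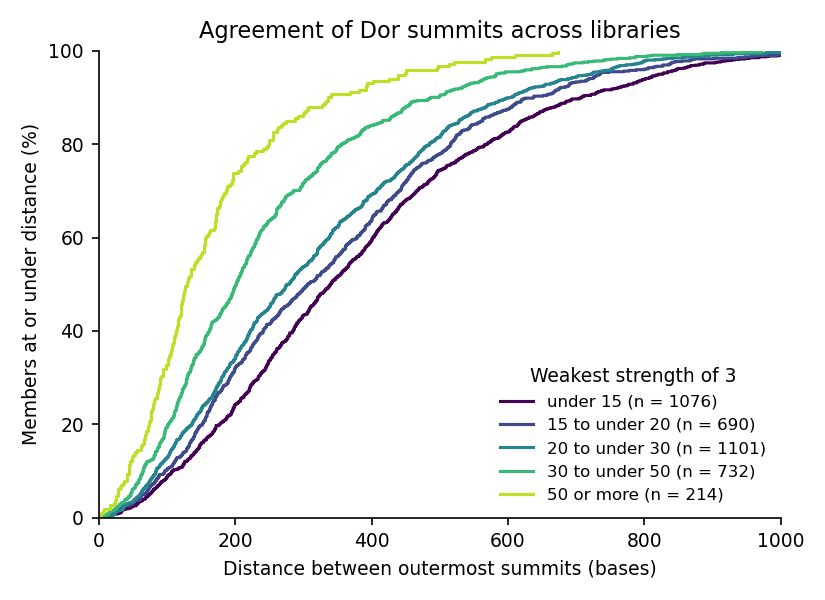
Share of compact regions (percent) whose 3 summits lie within a given distance (bases), in 5 classes of the lowest of the 3 strengths. Curves rise earlier with strength: the median distance is 340 bases under a strength of 15 and 129.5 bases at 50 or more.

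Among the 50 compact regions of highest minimum strength, 20 had all 3 summits within 100 bases. The closest lay on chromosome 11 at 62230419 to 62231474, where the summit was base 62230744 in OPC and 62230745 in both iOL and mOL. OPC held 154 fragments there, iOL 42 and mOL 312. On chromosome 4 at 165073220 to 165074116 the summits spread over 7 bases, with 118, 43 and 197 fragments and strengths of 80.1, 79.6 and 108. On chromosome 11 at 35497656 to 35498885 they spread over 17 bases, with 208, 46 and 245 fragments. The strongest region, on chromosome 4, had its OPC and iOL summits at 142116556 and 142116561 and its mOL summit at 142116374, so the range there was 187 bases.

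Strength and summit distance changed with the span. The 634 compact regions under 750 bases had a median OPC strength of 21.03, iOL 27.8 and mOL 26.2, and the 767 of 1250 bases or more had 29.2, 31.5 and 39.9. The median ratio of mOL to iOL rose with span, from 0.960 under 750 bases to 1.14, 1.22 and 1.28 in the classes of 750 to 1000, 1000 to 1250 and 1250 to 1500 bases. That of iOL to OPC fell, from 1.26 to 1.04. The span was set by the peaks of all 3 libraries, and stronger regions tended to have wider peaks, so span and strength are not separate measures. The median OPC width was 495 bases where the weakest strength was under 15 and 863.5 at 50 or more. Single regions departed from this, and the strongest, on chromosome 4, spanned only 736 bases.

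The span limit passed through a continuous range of regions. The 3 widest compact regions were one of 1498 bases on chromosome 10 at 94723999 to 94725496 and a pair of 1497 bases on chromosome 1, at 58741524 to 58743020 and 169815865 to 169817361. Their pileups were 53, 9 and 55 fragments in OPC, iOL and mOL, then 25, 11 and 79, then 50, 17 and 92. The 3 shared regions just over the limit spanned 1500 bases (chromosome 1, 83808241 to 83809740), 1501 bases (chromosome 10, 39647077 to 39648577) and 1502 bases (chromosome 17, 29578628 to 29580129). They had 80, 15 and 146 fragments, 47, 19 and 67, and 11, 10 and 32. The values on both sides overlapped. The narrowest compact region, of 351 bases on chromosome 10 at 83693751 to 83694101, had 31, 22 and 70 fragments. The next, of 354 bases (chromosome 4, 224239012 to 224239365) and 357 bases (chromosome 10, 43232784 to 43233140), had 17, 11 and 19, and 15, 19 and 31.

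Compact regions were unevenly spread over the chromosomes. Chromosome 10 carried 304, or 2.75 per Mb, which was 1.98 times the mean of 1.39 per Mb, while all joined regions stood there at 1.35 times their mean. Of the regions on chromosome 10, 2.19% were compact shared regions (1.95 to 2.45%), against 1.5% over chromosomes 1 to 20. Chromosomes 12, 7, 8, 20 and 19 followed, at 1.38, 1.34, 1.30, 1.30 and 1.28 times the mean. The lowest densities were on chromosome 4, at 0.635 times the mean from 219 regions, chromosome 2, at 0.669 times from 265, and chromosome 15, at 0.735 times from 117. The share of regions that were compact and shared was lowest on chromosome 2, at 1.14% (1.01 to 1.29%). Lengths were taken up to the last peak of each chromosome. The median ratio of mOL to OPC strength lay between 1.23, on chromosome 7, and 1.55, on chromosome 11, with all 20 chromosomes above 1. All chromosomes share the same scaling of each library, so these 20 medians are not separate observations. Chromosome medians were not computed with the authors' fold.

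**Figure D4:**
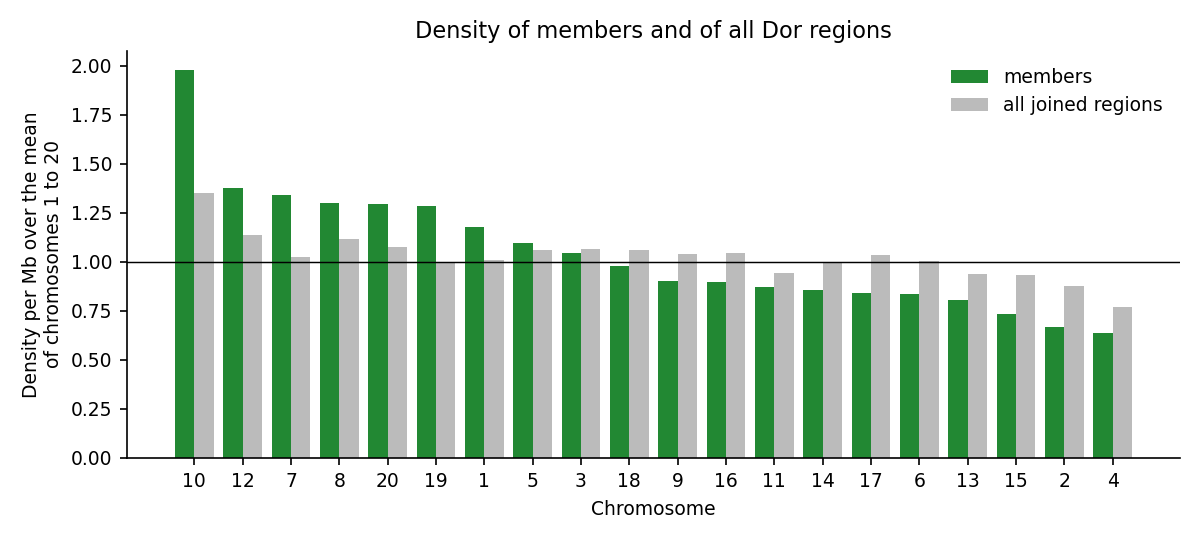
Density per Mb of compact shared regions and of all joined regions on each chromosome, divided by the mean over chromosomes 1 to 20. The compact regions range from 0.635 times the mean on chromosome 4 to 1.98 times on chromosome 10, and all joined regions from 0.769 to 1.35 times.

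Most compact regions had no other within 10000 bases, but they were unevenly spread over windows of 1 Mb. The median distance to the next compact region was 105393 bases, and 243 (6.37%) had another within 10000 bases. Joined by gaps under 10000 bases, they formed 3570 single regions, 114 pairs and 5 runs of 3, the latter on chromosomes 2, 10 and 12 and 2 of them on chromosome 3. Of 2614 windows of 1 Mb with any Dor region, 1116 held no compact region and 24 held 10 or more. The 205 windows with 5 or more (7.84%) held 1393 compact regions (36.5%). Distances and windows were not set against random placement. The fullest window lay on chromosome 7 at 11000001 to 12000000, with 16 compact of 178 regions, next to one with 15 of 212 at 12000001 to 13000000. Chromosome 3 at 2000001 to 3000000 held 15 of 154. The ratios of neighbouring compact regions were only weakly related. For 124 neighbouring pairs under 10000 bases apart, the Spearman coefficient of the ratio was 0.139 for mOL to OPC, -0.017 for iOL to OPC and 0.002 for mOL to iOL. For 1101 pairs 50000 to 200000 bases apart it was 0.087, 0.103 and 0.073. These are descriptions over pairs that share libraries and depth. With 124 pairs so weak a coefficient is no finding, and the coefficients over the 1101 pairs were small and not tested.

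Around the compact regions other Dor peaks were scarce up to 5 kb from the summit and common beyond it. From 1 to 5 kb there were 1.76 other OPC peaks per 100 kb scanned, 1.66 iOL peaks and 4.31 mOL peaks. From 5 to 10 kb the values were 4.21, 3.61 and 9.53, and from 10 to 20 kb 4.04, 3.23 and 9.53. The density near the region was thus 0.417, 0.459 and 0.453 times that at 5 to 10 kb. The step was sharp: in OPC the density was 1.60 at 4 to 5 kb, 3.62 at 5 to 6 kb and 4.55 at 6 to 7 kb. Around regions of 1 library the same ratio was 0.915 for OPC, 0.943 for iOL and 0.901 for mOL, and around regions of 2 libraries it was 0.731, 0.862 and 0.709. The shared regions of 1500 bases or more had the same scarcity, with 0.411, 0.555 and 0.300, so it is not particular to the compact ones. The peak caller's local background moved with this pattern. Its median was 2.32, 2.00 and 3.43 times the genome background at the compact regions and equal to it, to 2 decimals, in each library at regions of 1 library. The local window was taken as 10 kb, which reaches 5 kb on each side of a position, the distance at which the step lies. The part of the local background in the scarcity was not tested. Beyond 5 kb the compact regions lay among more peaks than regions of 1 library, which had 3.03 OPC, 2.69 iOL and 7.76 mOL peaks per 100 kb at 5 to 10 kb.

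**Figure D5:**
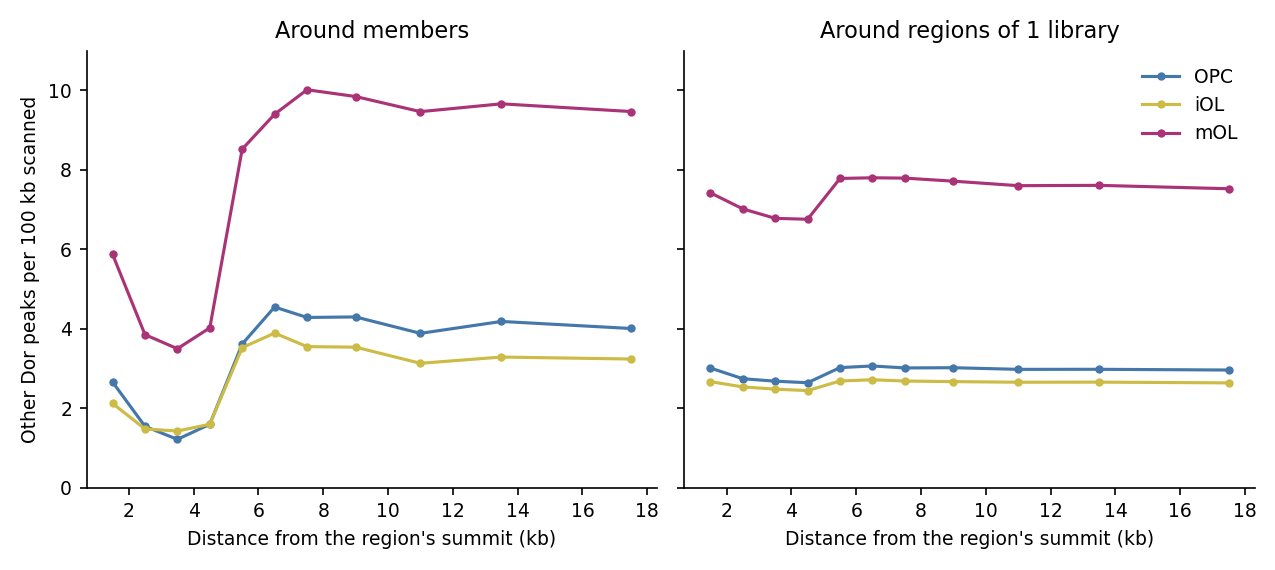
Other Dor peaks per 100 kb scanned on both sides, by distance (kb) from the region's summit, in OPC, iOL and mOL, on the left around the 3813 compact regions and on the right around the 233945 regions of 1 library. Around compact regions the density steps up at 5 kb, from 4.03 to 8.52 in mOL.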

How the data were processed

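Dor CUT&Tag gave 1 deposited narrowPeak list per stage. Per the submitters' processing notes, the build was rn5 and the tools were MACS2 2.2.7.1, Bowtie2 2.4.4 and deepTools 3.5.1. The sources used here do not give control libraries, the meaning of pool in the peak names or the handling of duplicates. The authors' fold is a linear ratio of summit pileup to local background, and the authors' p-value and q-value are on the −log10 scale. The deposited score is the −log10 p scaled to a whole number. Start, end and summit are deposited positions, printed counted from 1.

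Pileup and local background were solved from fold and p (pseudocount 1, Poisson), and the p came back within 0.001 on the log10 scale for 100% of OPC and iOL and 99.97% of mOL peaks in the compact regions. The calculation was tested on simulated data. Where a library had several peaks in a region, the one of highest pileup stood for it. Ratios of strength carry exact conditional binomial (Clopper-Pearson) 95% intervals. A ratio was called at 2 or more, or at 0.5 or less, and the percentages set beside the compact regions cover all regions on chromosomes 1 to 20 with a peak in both libraries. No p-values were computed, since each stage had 1 library. Mitochondrial fragments made up an estimated 28.1% of the OPC library, 38.0% of iOL and 19.4% of mOL.

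Named regions were the 5 of highest minimum strength, the 3 highest and 3 lowest of each ratio whose interval excludes 1, the 3 on each side of the span limit, the narrowest 3, and the 3 with the closest summits among the 50 strongest. The compact regions and these rules were chosen with earlier results of these data known. Genes, genomic features and sequences were not assigned, because a genome or annotation of rn5 was not used here. Python 3.11.15, numpy 2.4.6, pandas 2.3.3, scipy 1.17.1 and matplotlib 3.10.9 were used.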

Additional observations from a re-analysis of the deposited data

Results flagged for a closer look

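Chromosome X lay outside the chromosomes used, and 66 regions there met the same conditions, a peak in all 3 libraries and a span under 1500 bases. They were singled out because they are a signal in data that the report's comparisons do not use. They made up 0.609% of the 10846 joined regions on chromosome X (0.471 to 0.774%), against 1.5% on chromosomes 1 to 20, and their median strengths were 20.7 in OPC, 23.1 in iOL and 26.5 in mOL.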

How the results depend on the processing

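The pileup limits what can be told apart, most of all in iOL, and 1 library per stage leaves stage and library inseparable. No paired analysis was possible because there is only 1 library per stage. The alternatives on sequence and features were not run, for want of an rn5 annotation in this work. A common base in all 3 libraries and the inclusion of chromosome X were alternatives chosen after seeing the data. Counts below are given for ratios of at least 2 and then at most 0.5.

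Scaling moved the ratios most. Centred on all regions shared by the pair, the median ratio was 0.898 for iOL to OPC (291 and 543 regions), 1.08 for mOL to OPC (360 and 255) and 1.36 for mOL to iOL (912 and 186). With the authors' fold it was 0.926 (79 and 194), 1.03 (124 and 89) and 1.12 (237 and 102), and 1739 regions lay within 1.5 times between libraries. Without estimated mitochondrial fragments it was 1.30 (848 and 158), 1.19 (520 and 175) and 0.909 (283 and 579). The cause of the changed directions was not tested.

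Stricter sharing left fewer regions. With 50% of both peaks overlapping, 2084 regions were left. The calls were then 292 and 129 for iOL to OPC, 373 and 61 for mOL to OPC, and 336 and 138 for mOL to iOL, whose median was 1.201. Within 1.5 times lay 506, and summits were within 100 bases in 41.9% (iOL and OPC), 47.0% (mOL and OPC) and 40.1% (mOL and iOL). With 200 bases around each summit 1929 regions were left, with calls of 263 and 154, 367 and 57, and 356 and 137, and 442 within 1.5 times. The medians were then 1.08 for iOL to OPC and 1.23 for mOL to iOL, and the summit shares 52.6%, 57.6% and 52.3%. A span under 1000 bases left 1831 regions, with medians of 1.19, 1.29 and 1.09, calls of 316 and 98, 339 and 72, and 247 and 198, 405 within 1.5 times, and summit shares of 40.1%, 44.1% and 39.98%. The share of regions called at least 2-fold higher in mOL than in OPC was 17.9%, 19.0% and 18.5% in these 3 sets, against 19.2%.

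The other alternatives moved less. A −log10 q of at least 5 left 3339 regions and an iOL to OPC median of 1.15. A fold of at least 5 left 3150 regions, a mOL to iOL median of 1.198, 77 regions with mOL to OPC and 180 with mOL to iOL at most 0.5, and summit shares of 36.2% (iOL and OPC) and 42.9% (mOL and OPC). A common base left 3465 regions and summit shares of 37.0%, 42.8% and 36.0%. A span under 2000 bases gave 4307 regions and chromosome X 3879. Of all values recomputed, 73 stayed within the limits set for a change, 66 moved beyond them and 3 reversed.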
